A study of Mus musculus with 14 samples.

Results

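The comparison set the 1 array of the skin cell line against the 2 arrays of the fibroblast cell line, in a mouse series of 14 two-colour arrays from 11 cell lines made to ask what each line contributes to a commercial reference RNA. On each array total RNA of a line was labelled with Cy5, and the Stratagene mouse reference, which pools RNA of mouse cell lines, with Cy3. Every value below is a log2 ratio of line over pool after the median of its array was set to 0. On this scale 0 marks the array's middle ratio and 1 is 2-fold above it. Above, over or below the pool is meant on this centred scale. Samples were taken by their titles, and the other 11 arrays entered no log2 ratio or difference given here; they entered only an alternative estimate of the spread. Of 7601 features, 7565 were measured on all 3 arrays, and 4414 of these (58.3%) had a difference of the same sign against both fibroblast arrays. Skin was the higher in 2239 and the lower in 2175. In the remaining 3151 features the skin value lay at or between the fibroblast values, and no direction is given for them.

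The labels give neither strain, age, passage, medium nor the name of either line. Titles call the samples cell lines, whereas a short annotation on the same samples reads primary tissue; groups here rest on the titles. Nothing in the labels says that the fibroblast arrays are of different cultures. The p-values therefore measure the spread between these arrays alone, mostly as a value common to all features, and that spread may be technical. The image links in the labels place the skin array in a different folder from both fibroblast arrays, so the line and whatever differs between those folders cannot be told apart. The dyes were never exchanged, so a dye effect of a probe would enter all 3 ratios alike and cancel in a difference between arrays. It would not cancel in a ratio that is high or low on all 3.

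Fibroblasts are the mesenchymal cells that build and remodel connective tissue. They secrete fibrillar collagens, small proteoglycans such as decorin, and matricellular proteins such as the thrombospondins, and carry intermediate filaments of vimentin. Skin holds fibroblasts in the dermis and keratinocytes in the epidermis, with melanocytes, vessels and immune cells between, so the tissue of origin alone does not say which cell a skin line grew from.

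Over all features the skin array was closer to fibroblast array 1 than to array 2. The SD of the difference and the share of features 2-fold apart were larger within the fibroblast pair than between skin and either array, whereas Pearson's r within the pair lay between the values with skin. The SD of the difference in log2 ratio was 0.875 between skin and fibroblast array 1, 0.945 between skin and fibroblast array 2, and 1.002 between the fibroblast arrays. Pearson's r across the 7565 features, which share the pool, the platform and many probe effects and are not independent replicates, was 0.487, 0.348 and 0.379 for the same pairs, and Spearman's rho was 0.427, 0.271 and 0.239. After a smooth trend along the probe number was taken from each array, r within the fibroblast pair was 0.451, and with skin it was 0.489 for array 1 and 0.355 for array 2. A difference of 2-fold or more separated skin from array 1 at 20.8% of features, skin from array 2 at 22.8% and the fibroblast arrays at 30.2%. The wide fibroblast pair limits what the comparison can resolve. The log2 ratios had an SD of 0.782 on the skin array, 0.928 on fibroblast array 1 and 0.869 on array 2.

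Skin differed from both fibroblast arrays by 2-fold or more, in one direction, at 489 features (6.46%). It was above both at 173 (2.29%) and below both at 316 (4.18%), and past 4-fold the counts were 26 above and 70 below. The features above thus made 35.4% of those past 2-fold with centred arrays, against 57.0% with the ratios as deposited (298 above, 225 below), because the medians as deposited were 0.127 for skin and -0.107 and -0.055 for the fibroblast arrays. Against fibroblast array 2 alone the counts would be 1000 above and 724 below, and against array 1 alone 597 above and 976 below. Limma's moderated test, with Benjamini-Hochberg adjustment over all 7565 features, called 15 features (0.198%), 3 higher in skin (0.0397%) and 12 lower (0.159%), and 257 features had an unadjusted p under 0.05. The test took its spread from the fibroblast pair and assumed that the lone skin array varies alike. When the spread came from all 14 arrays of the series, 1 of these 15 was called, and removing the trend along the probe number also left 1; in both cases it was Dcn.

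**Figure D1:**
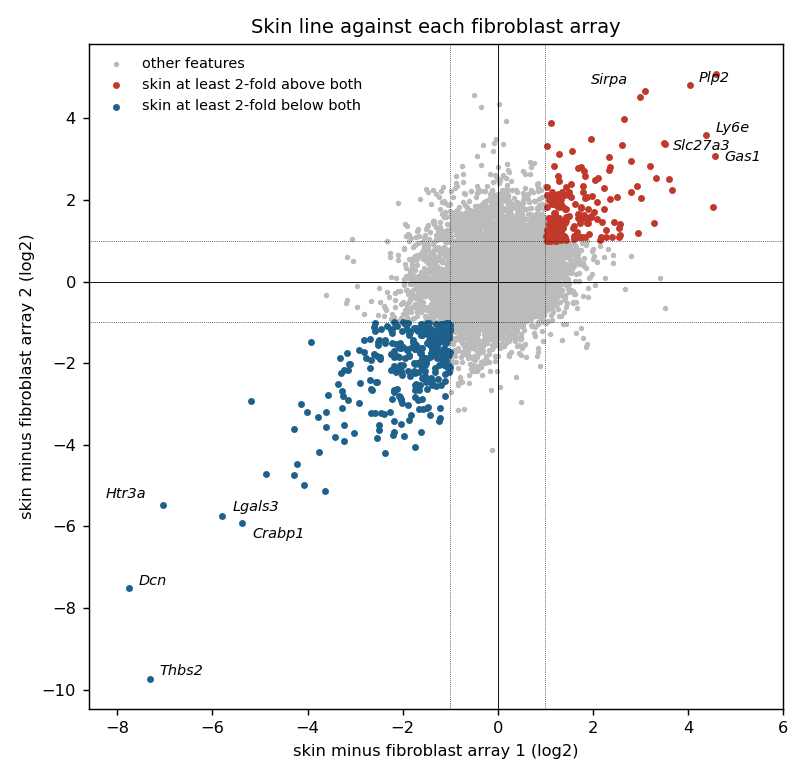
Each point is 1 of 7565 features, placed by skin minus fibroblast array 1 (x axis) and skin minus fibroblast array 2 (y axis), both on the log2 scale; dotted lines mark 2-fold. The 316 blue features lie 2-fold or more below both arrays and reach much further from 0, to Dcn and Thbs2, than the 173 red ones lie above.

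The features furthest below fibroblast, Dcn and Thbs2, code for secreted matrix proteins. Dcn encodes decorin, a small leucine-rich proteoglycan that binds collagen fibrils. Its log2 ratio was -5.63 in skin, 2.12 on fibroblast array 1 and 1.89 on array 2, so both fibroblast arrays lay above the pool and skin far below it, 183-fold under the nearer fibroblast array. The mean difference was -7.64 ± 0.79 (SE; limma adjusted p = 6.95e-05). Thbs2, thrombospondin 2, a secreted glycoprotein that restrains angiogenesis, was at -6.27 in skin, 1.05 on array 1 and 3.46 on array 2. Its fibroblast values lay 2.41 apart, and skin was 159-fold under the lower of them, with a mean difference of -8.52 ± 0.93 (SE; limma adjusted p = 6.95e-05). Thbs1, its close relative and an activator of latent TGF-beta, was at -3.23 in skin against 1.05 and 1.51 (mean difference -4.51 ± 0.80, SE; limma adjusted p = 0.0173). The probes of Thbs1, Thbs2 and Dcn stand near each other in the array's list (numbers 5643, 5647 and 5656); Eng, at number 5650 between them, lay the other way, and the part of this placement was not tested.

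Other lower calls came from different classes of protein. Lgals3, galectin-3, a beta-galactoside-binding lectin, was at -4.27 in skin and at 1.54 and 1.49 in fibroblast (mean difference -5.78 ± 0.79, SE; limma adjusted p = 0.00116). Crabp1, a cytosolic carrier of retinoic acid, was at -3.12 in skin against 2.27 and 2.81 (-5.65 ± 0.80, SE; limma adjusted p = 0.00146). For both genes the fibroblast arrays lay close together and far above skin. Htr3a, a subunit of the serotonin-gated ion channel, was at -6.99 in skin, 0.04 on array 1 and -1.52 on array 2, and so was at or below the pool in fibroblast too. Niban1 was at -2.53 against 2.35 and 2.19, and Pla2g7, the secreted enzyme that hydrolyses platelet-activating factor, at -2.35 against 1.87 and 2.12. Arhgdib, best known from blood cells, was at -3.04 against 0.73 and 1.15. The limma adjusted p was 0.00116 for Htr3a, 0.00850 for Niban1, 0.0190 for Pla2g7 and 0.0464 for Arhgdib.

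Flna, the actin cross-linker filamin A, was called lower by 1 of its probes and not by the other. The first read -2.97 in skin against 1.32 and 0.64 (limma adjusted p = 0.0478), the second 1.09 against 1.43 and 0.55, so the gene has no settled direction. The 2 remaining lower calls were probes without a gene name (numbers 4805 and 1873), at -4.25 and -4.20 in skin.

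The next genes in rank did not pass the test. Igf2r, the receptor that carries IGF2 to lysosomes, was at -2.40 in skin against 1.21 and 1.16, and Lgals3bp, a secreted galectin-binding glycoprotein, at -2.46 against 0.95 and 1.36. Col6a1, a chain of the microfibrillar collagen VI, was at -1.90 against 2.12 and 1.29 (limma adjusted p = 0.0900 for all 3). Clu, the secreted chaperone clusterin, was at -2.59 against 1.19 and 0.74 with 1 probe and at -0.14 against 1.05 and 0.19 with the other.

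**Figure D2:**
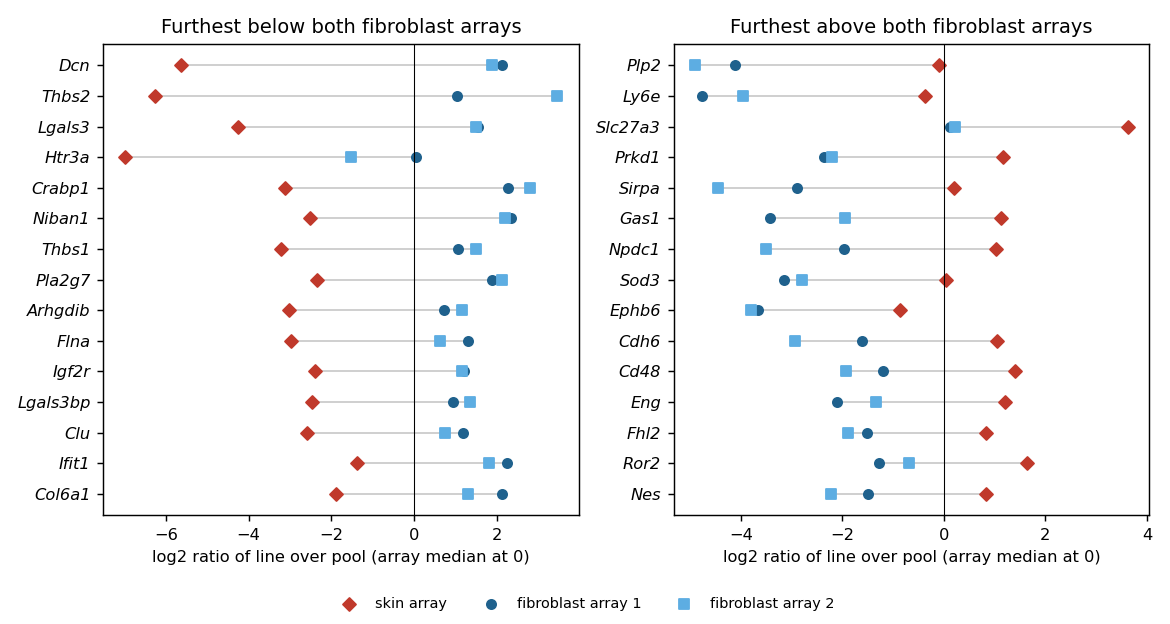
Log2 ratio of line over pool on the skin array (red diamonds), fibroblast array 1 (dark blue circles) and fibroblast array 2 (light blue squares) for the 15 named features furthest below both fibroblast arrays (left) and the 15 furthest above (right). On the left skin lies below the pool for all 15 genes; on the right Slc27a3 alone passes 2 in skin, and most gaps come from fibroblast ratios far below 0.

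Plp2 and Ly6e were the named features called higher in skin, and in neither was the centred skin value above 0. Plp2, a small proteolipid of the endoplasmic reticulum membrane, was at -0.09 in skin, -4.12 on fibroblast array 1 and -4.90 on array 2 (mean difference 4.42 ± 0.81, SE; limma adjusted p = 0.0190). Ly6e, a lipid-anchored surface protein of the Ly6 family, was at -0.38 against -4.76 and -3.96 (3.98 ± 0.81, SE; limma adjusted p = 0.0478). Skin was 16.4-fold and 12.0-fold above the nearer fibroblast array, at about the ratio of an average gene. The third higher call was an unnamed probe (number 4407), at 1.42 in skin against -3.17 and -3.67.

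Slc27a3 had the opposite form, high in skin and average in fibroblast. The gene belongs to the family of fatty acid transport proteins, which bind long-chain fatty acids to coenzyme A. Its log2 ratio was 3.62 in skin, 0.12 on array 1 and 0.22 on array 2, a 10.6-fold gap to the nearer array that did not pass the test (mean difference 3.45 ± 0.79, SE; limma adjusted p = 0.101). It does not mark both lines, although it is listed among the markers of the comparison. Among 21 measured genes of fatty acid uptake and activation, Cd36, a fatty acid translocase, was the other one 2-fold above both fibroblast arrays (-1.49 against -3.04 and -4.69), and Crot was below both (-2.19 against -0.55 and -0.22). Those 3 genes did not share a direction.

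Further genes above both fibroblast arrays, none of which passed the test, include surface receptors and signalling proteins. Prkd1, protein kinase D1, was at 1.16 in skin against -2.36 and -2.20. Gas1, a surface co-receptor for Hedgehog ligands first found in arrested fibroblasts, was at 1.13 against -3.44 and -1.95. Eng, endoglin, a TGF-beta co-receptor of endothelial and mesenchymal cells, was at 1.21 against -2.11 and -1.33. For these 3 genes skin was 2-fold or more above the pool while both fibroblast arrays were below it. Ror2, a receptor for Wnt5a, was at 1.64 against -1.29 and -0.69, and Nes, the intermediate filament nestin of progenitor cells, at 0.83 against -1.50 and -2.23. Sirpa, the receptor for CD47, was at 0.20 against -2.90 and -4.46, and Sod3, the extracellular superoxide dismutase, at 0.04 against -3.15 and -2.79. Cdh6, a cadherin, was at 1.04 against -1.61 and -2.94 with 1 probe and at 0.65 against -1.17 and 0.26 with the other. The limma adjusted p of these genes ran from 0.0900 for Gas1 and Sirpa to 0.455 for Ror2.

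At the other end, 44 features (0.582%) were 2-fold or more over the pool on all 3 arrays, of which 18 had a gene name. Counted by gene, with probes of a gene averaged, they were 18 of 6517 (0.276%). Alone, 263 features reached that ratio on the skin array, 827 on fibroblast array 1 and 348 on array 2. The skin array shared 113 with array 1 (43.0% of the skin features, 13.7% of those of array 1) and 80 with array 2 (30.4% and 22.99%). The fibroblast arrays shared 136 (16.4% of array 1, 39.1% of array 2). Of these 136 features, skin was also 2-fold over the pool in 32.4%, against 3.48% of all features. Skin was above 0 in 64.7% of them, against 49.9% of all features. Its median over them was 0.53, and in 21 of them skin was 2-fold or more below the pool.

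Hmga2, one of the markers of the comparison, was among the 18 named genes that were 2-fold or more over the pool on all 3 arrays. It encodes an architectural chromatin protein of embryonic and transformed mesenchymal cells. Its log2 ratio was 1.65 in skin, 2.48 on fibroblast array 1 and 2.51 on array 2, above the pool on every array and lowest in skin. Of the other 5 measured HMG and related genes none was 2-fold over the pool on all 3 arrays, and none of the list of 6 was 2-fold apart between the lines. Over all genes 0.276% were so high, 2.27% lay above both fibroblast arrays and 4.33% below both. At those shares a list this short holds few such genes or none. Grem1, gremlin, a secreted antagonist of BMP ligands, was at 1.11 in skin, 2.34 on array 1 and 1.32 on array 2, so skin and array 2 were closer than the fibroblast arrays were to each other. Stat4, a transcription factor of cytokine signalling in lymphocytes, read 1.71, 2.13 and 2.60; its probe has the number next to that of Hmga2 (6849 and 6848), and the part of this was not tested.

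Both enzymes of acetylcholine turnover were high in both lines. Chat, which makes acetylcholine, was at 1.97 in skin, 1.78 on array 1 and 3.06 on array 2, and Ache, which breaks it down, at 1.52, 2.20 and 2.62. Skin lay between the fibroblast values for Chat and below both for Ache. Twist2, a transcription factor of dermal mesenchyme, was at 1.09 in skin against 2.86 and 2.23, and so was high in both lines and also 2-fold below both fibroblast arrays. Ctsl, the lysosomal protease cathepsin L, read 1.35, 2.20 and 2.11, and Neo1, a receptor for netrins and repulsive guidance molecules, 1.25, 1.94 and 2.06. Ereg, an EGF receptor ligand, was at 1.08 in skin against 2.36 and 1.20, and Bdnf, a neurotrophin, at 1.21 against 1.06 and 1.17. Spry2, an inhibitor of receptor tyrosine kinase signalling, was at 1.04 against 1.02 and 1.54. Among the 18 named genes skin was the lowest of the 3 arrays in 11 and the highest in 2. Of the 26 unnamed features, 25 lay in 5 short runs of neighbouring probe numbers, whose bounds were set by hand around these features. Within a run, from 3 of 17 to 8 of 21 unnamed features were high on all 3 arrays. With the trend along the probe number removed, 38 features were high on all 3 arrays, 27 of them among the 44.

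**Figure D3:**
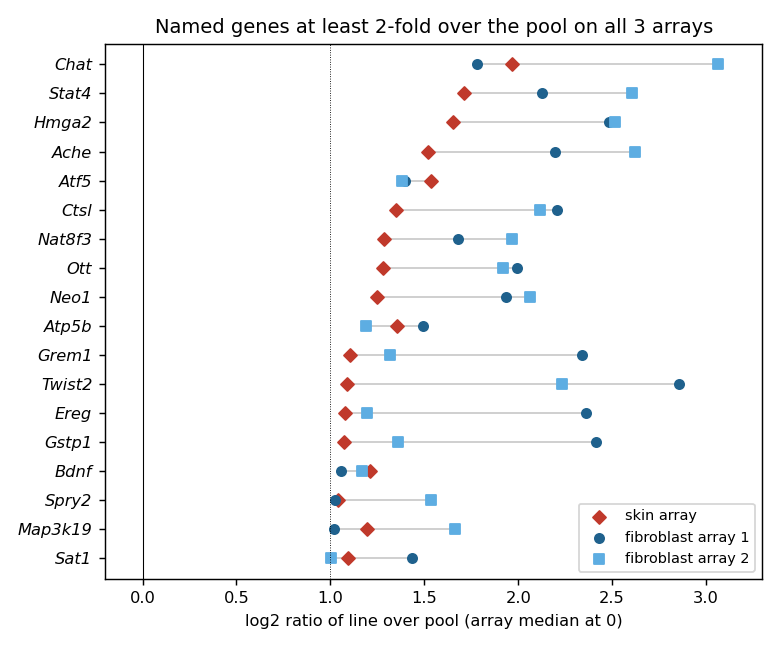
Log2 ratio of line over pool for the 18 named genes that were 2-fold or more over the pool (dotted line, log2 ratio 1) on the skin array (red diamonds) and both fibroblast arrays (circles and squares), ordered by the lowest of the 3 values. Skin is the lowest of the 3 points for 11 genes, and Hmga2 and Twist2 sit well above the line in fibroblast.

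Features low in both lines were more numerous, 226 on all 3 arrays (2.99%), or 203 of 6517 genes (3.11%). Skin was also 2-fold below the pool in 61.1% of the 370 features that were so on both fibroblast arrays, against 10.1% of all features. It was 2-fold above the pool in 7 of the 370. Gas6, the ligand of the TAM receptor tyrosine kinases, was the lowest named gene, at -6.80 in skin, -6.21 on array 1 and -6.12 on array 2. H19, an imprinted non-coding RNA of fetal tissue, was at -4.23, -4.72 and -4.61. The other lowest ones included genes of blood cells. Ptprc, the pan-leukocyte phosphatase CD45, was at -3.90, -4.53 and -3.96, and the macrophage antigen Cd68 at -3.58, -4.14 and -3.71. Of 30 measured leukocyte genes, 19 were 2-fold below the pool on all 3 arrays, and the list's median was -2.32 in skin, -2.18 on array 1 and -1.87 on array 2. Arhgdib is the member of this list that reached 0.73 and 1.15 in fibroblast.

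The gene lists were written with earlier results of these data known, so their counts are descriptions and not independent of the data. Each was read by its counts past 2-fold, beside 148 of 6517 genes above both fibroblast arrays (2.27%) and 282 below both (4.33%). Its median difference was read beside 0.03 over all genes. Limma called 0.198% of all features, and at that share a list of this length holds few calls or none. In the counts of a list, above or below both arrays means by 2-fold or more. In the fibroblast list 30 genes were measured, of which 11 lay 2-fold below both fibroblast arrays and 1, Eng, above both. Limma called 2 of them, Dcn and Crabp1, both lower. The list's median difference was -0.73, and its median log2 ratio was -0.51 in skin, 0.39 on array 1 and 0.68 on array 2. In skin 4 of the 30 (S100a4, Eng, Twist2 and Vim) were 2-fold over the pool, where 3.48% of all features were. Another 11 were 2-fold below the pool in skin, where 10.1% of all features were. On fibroblast arrays 1 and 2, 8 and 10 of the list were 2-fold over the pool. The genes 2-fold below both fibroblast arrays were Dcn, Crabp1, Col6a1, Fbln2, P4ha2, Col6a2, Fbln1, Prrx1, Twist2, P4ha1 and Itgb1. Over the scalings tried, 8 to 11 were below.

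Not all fibroblast markers followed these. Vim, the mesenchymal filament vimentin, was at 1.04 in skin, 0.56 on array 1 and 1.34 on array 2, and S100a4, the calcium-binding protein FSP1, at 1.58, 1.37 and 0.75. For both genes the skin array was above the pool and within or above the fibroblast range. Thy1, a surface marker of many fibroblasts, was low in both lines (-2.30, -3.26 and -2.24). Pdgfra, the PDGF receptor of mesenchyme, was at -0.53, -0.93 and 0.40 in the mean of 2 probes. Those probes disagreed on fibroblast array 2, at -0.565 and 1.365. Prrx1, a homeobox factor of limb and dermal mesenchyme, was at -0.51 in skin against 0.78 and 1.35.

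Of 23 other collagen genes, 3 lay 2-fold below both fibroblast arrays and 1 above, with a median difference of -0.05; the collagen VI chains are counted in the fibroblast list, where Col6a1 and Col6a2 lay 2-fold below both. Col3a1, the type III chain of loose connective tissue, was at -3.37 in skin against -0.09 and -0.28, and Col8a1 at -0.30 against 1.43 and 2.21. Col12a1, a collagen associated with fibrils, lay above both fibroblast arrays, though low in both lines (-2.03 against -3.22 and -3.36). Col1a1, the main chain of type I collagen, was at -1.49 in skin, -0.74 on array 1 and 0.98 on array 2, and so did not reach 2-fold against array 1. Limma called none of the 23, where 0.198% of all features were called.

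Among 43 genes of matrix glycoproteins, 7 lay 2-fold below both fibroblast arrays and 1 above, and limma called Dcn, Thbs1 and Thbs2, all lower. Dcn is also counted in the fibroblast list. The median difference of the matrix glycoproteins was -0.14 with centred arrays and 0.06 as deposited, so it has no settled direction. Under each scaling tried, 7 or 8 members were 2-fold below both arrays. Ccn2, the matricellular growth factor CTGF, was at -4.55 in skin against -0.97 and -1.77, and its relative Ccn3 at -0.75 against 1.75 and 2.76. Sparc, which binds collagen, was at -0.76 against 0.53 and 1.02. Postn, periostin, was the exception, at -1.25 against -2.92 and -2.90. In the basement membrane list of 16, 3 lay below both arrays and none above, while the median difference was 0.08. Sparc is among those 3 and is also counted with the matrix glycoproteins. The nidogen Nid1 was at -1.13 against 1.06 and 2.29.

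Enzymes that cut or cross-link matrix went both ways. Of 38 measured, 6 lay below both fibroblast arrays and 2 above, with a median difference of -0.40 and no limma call. The lysyl oxidase Lox was at -5.11 in skin against -3.14 and -1.33 and Loxl3 at -0.70 against 1.36 and 0.94, whereas Loxl2 was at -1.70 against -3.44 and -3.52. The inhibitors of metalloproteases also divided. Timp1 was at -0.42 against 1.82 and 0.76, and Timp3 at -1.79 against -4.59 and -3.98. The gelatinase Mmp2 was at -1.37 against -0.35 and -0.17.

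Contractile genes had a median difference of -0.89 over 13, with 5 2-fold below both fibroblast arrays and 1 above; the 5 are Csrp1, Cnn2, Tpm1, Myh9 and, through the mean of its disagreeing probes, Flna. Cnn2, a calponin, was at -1.50 in skin against 0.52 and 1.99, and Tpm1, a tropomyosin that lines actin filaments, at -0.96 against 0.84 and 0.65. Its paralogue Tpm2 lay the other way, at 0.95 against -0.93 and -0.48. The limma call in this list was the one probe of Flna.

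Genes of BMP and TGF-beta signalling had 3 of 39 above both arrays and 1 below, with no limma call. Fst, follistatin, which binds activins, was at 0.94 in skin against -1.29 and -1.34, while Grem1 was high in all. Of 40 Wnt pathway genes 4 were above and 2 below, again without a call. The receptor Fzd3 was at 0.44 against -1.66 and -2.09, the antagonist Dkk1 at 0.29 against -0.81 and -1.05, and the antagonist Sfrp1 at -1.81 against -0.40 and 0.56. Of 46 measured Hox and other positional genes, 1 was above and 3 below; Hoxa11, a limb and genital tract gene, was at -1.24 in skin against 1.14 and 1.99.

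The keratinocyte list held no gene that was high in the skin line. Of 28 measured, none was 2-fold over the pool on the skin array, where 3.48% of all features were. At that share a list this short holds few such genes or none, so the count is near it. The list's median was -0.14 in skin, -0.30 on fibroblast array 1 and -0.62 on array 2. The basal-cell factor Trp63 was at -0.32 in skin against 0.17 and -1.14, the suprabasal keratin Krt1 at -0.18 against 0.68 and -1.88, and the envelope protein Ivl at 0.30 against -0.63 and -0.07. Perp, a desmosomal protein, was the 1 gene 2-fold or more above both fibroblast arrays, at -1.61 against -3.30 and -4.38. Of 28 genes of epithelia and their junctions, none was 2-fold above both fibroblast arrays, 2 were 2-fold below both (Cldn4, a claudin, at -1.49 against 1.19 and 0.93, and Jup, plakoglobin, at -1.64 against 0.96 and -0.51), and 9 were 2-fold below the pool on all 3 arrays, among them Krt8 (-3.22, -2.28 and -1.79) and Epcam (-1.38, -2.45 and -1.15).

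Markers of other cell types were also read. Of 13 melanocyte genes none reached 2-fold over the pool on any of the 3 arrays; Pmel was at 0.37 in skin against -0.85 and -0.85, and Mitf, the master regulator of the lineage, at -1.34 against -0.03 and -0.11. Of 16 endothelial genes, Eng was the 1 at 2-fold over the pool in skin, while Pecam1 was at -1.95, -1.21 and 0.03. Of 28 skeletal muscle genes, none reached 2-fold over the pool in skin, but 5 were 2-fold above both fibroblast arrays and 1 below, with a median difference of 0.64. The count above was 2 with arrays scaled to 1 spread and 7 with the ratios as deposited. The myogenic factor Myog was at -0.31 in skin against -1.35 and -3.62, and the muscle cadherin Cdh15 at -0.21 against -2.04 and -1.77. Limma called no gene of the keratinocyte, epithelial, melanocyte, endothelial or muscle lists. With 0.198% of all features called, that is near the share for lists of this length.

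**Figure D4:**
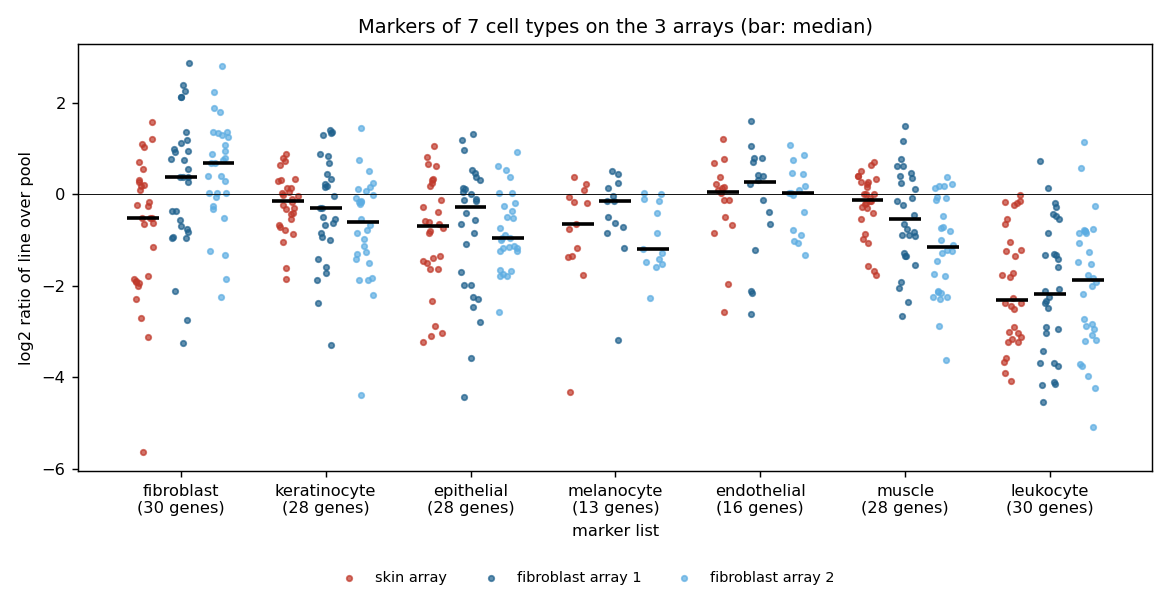
Log2 ratio of line over pool for every measured member of 7 marker lists (x axis, with the number of genes) on the skin array (red) and fibroblast arrays 1 (dark blue) and 2 (light blue); black bars are medians. The fibroblast list has its median below 0 in skin (-0.51) and above 0 on both fibroblast arrays, and the leukocyte list lies near -2 on all 3.

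Several genes of the interferon response lay below both fibroblast arrays, none of them past the test. Cells that sense type I interferon activate transcription factors, STAT2 and IRF9 among them, that bind the interferon-stimulated response element in promoters and switch on antiviral genes. Of 21 measured interferon and MHC genes, 9 lay 2-fold below both fibroblast arrays and 1, Ly6e, above both; 8 or 9 were below over the scalings tried. The list's median difference was -0.92, and its median log2 ratio was -0.76 in skin, -0.14 on array 1 and 0.39 on array 2. Limma called Ly6e, higher, and none of the lower genes.

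Among the list's genes below both fibroblast arrays, the antiviral effectors Ifit1 and Isg15 had the widest gaps. The gap of Ly6e, in the other direction, was wider. Ifit1, which binds foreign RNA caps, was at -1.38 in skin against 2.24 and 1.81 (mean difference -3.41 ± 0.80, SE; limma adjusted p = 0.109). Isg15, a ubiquitin-like modifier, was at -2.80 against -0.43 and 1.41, and Ifit3 at -1.11 against 0.88 and 0.49. Oas1a, a sensor of double-stranded RNA, was at -0.84 against 1.99 and 0.89, and Oasl2, of the same family, at -0.70 against 0.65 and 0.92. The fibroblast arrays lay on either side of 0 for Isg15 and above it for the others. The transcription factors lay below too. Stat2 was at -0.69 in skin against 1.07 and 0.80, Irf9 at -1.37 against -0.13 and 0.69, Irf7 at -2.38 against -0.14 and 0.51, and Irf1 at -1.97 against 0.15 and -0.15.

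Other members did not follow. Mx1 was at -0.68 in skin against 1.48 and -0.06, and B2m, the light chain of MHC class I, at 0.33 against 1.30 and 1.21, within 2-fold of the nearer array in both cases. Ifit2 was at 0.28 against -0.50 and 0.39, and the immunoproteasome subunit Psmb8 at -2.36 against -2.88 and -1.73. In these last genes skin lay between the fibroblast arrays.

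**Figure D5:**
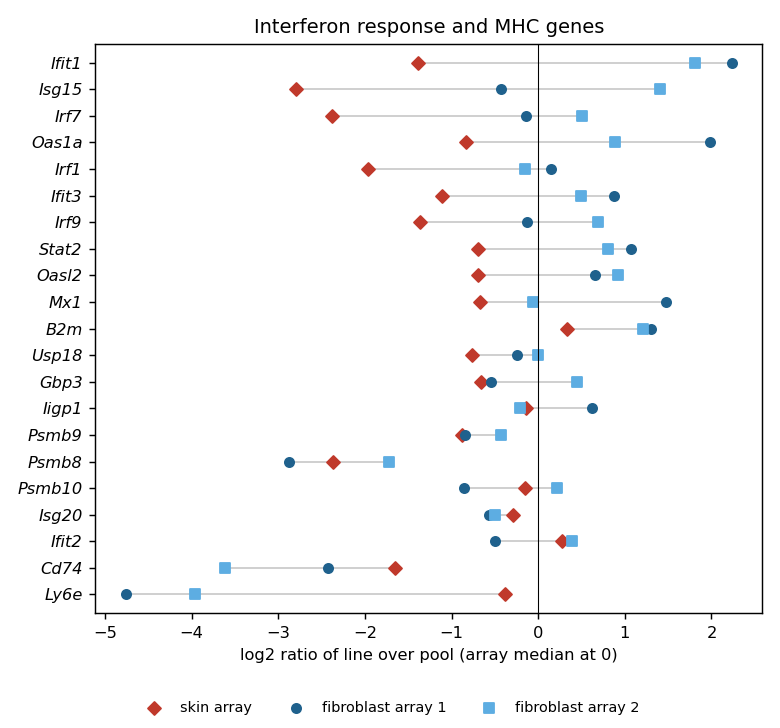
Log2 ratio of line over pool for the 21 measured interferon response and MHC genes on the skin array (red diamonds), fibroblast array 1 (circles) and array 2 (squares), ordered by the difference between skin and fibroblast. Skin is the leftmost point for the upper genes, from Ifit1 at -1.38 down the order, and the rightmost for Ly6e at -0.38.

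Promoters of the lower interferon genes were searched for the core of that response element, taken as 2 copies of GAAA with 2 bases of any kind between them, on either strand (read as TTTC on the other one), overlapping matches included, in the 250 bases before each RefSeq gene start of the GRCm38.p6 assembly. It stood in 5 of the 9 lower genes (55.6%; Ifit1, Ifit3, Isg15, Oas1a and Stat2) and in 2 of the 7 other list members with a window (28.6%; B2m and Gbp3). Over all windows the share was 2.98% (978 of 32851), and over genes of the array 3.73% (192 of 5152). The list was gathered as interferon response genes, so a share above that of all windows could follow from that choice alone. The split between lower and other members rests on 16 genes and was not tested. A match is a description of letters and not of a bound site. The stretches around the matches are printed for Ifit1, with the widest gap among the lower genes, for Isg15, where 3 matches overlap, and for Stat2, one of those factors itself. They read 5′ to 3′ on the strand of the gene, with the matches in capitals. They lie at chr19:34640735-34640863 (plus strand), chr4:156200825-156200946 (minus strand) and chr10:128270248-128270335 (plus strand).
Ifit1: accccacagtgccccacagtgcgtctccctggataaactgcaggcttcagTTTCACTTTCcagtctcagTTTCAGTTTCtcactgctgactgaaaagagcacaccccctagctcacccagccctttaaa
Isg15: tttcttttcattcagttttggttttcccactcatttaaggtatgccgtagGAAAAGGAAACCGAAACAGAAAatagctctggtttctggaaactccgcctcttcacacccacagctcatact
Stat2: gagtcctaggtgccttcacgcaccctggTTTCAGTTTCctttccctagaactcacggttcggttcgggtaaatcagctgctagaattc

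In Ifit1 the nearest match ended 76 bases before the gene start, in Isg15 57 bases and in Stat2 213 bases. Irf1, Irf7, Irf9 and Oasl2, which also lay below both fibroblast arrays, had no match to these letters in their windows.

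Counts past 2-fold were also read in 3 lists of basic cell functions. None of 40 cytosolic ribosomal protein genes, 22 oxidative phosphorylation genes or 10 cholesterol synthesis genes was 2-fold above or below both fibroblast arrays, when probes of a gene were averaged. Their median differences were 0.18, 0.06 and -0.12. Over all genes 2.27% lay above both and 4.33% below both, and at those shares lists this short hold few such genes or none. Single probes of Rplp0 (-1.78 in skin against -0.56 and 1.33) and Rpsa (-0.17 against 1.07 and 1.01) were 2-fold below both, and other probes of these genes were not. Of 61 cell cycle genes, 1 was above and 3 below. The cyclin-dependent kinase inhibitor Cdkn2b was at -0.86 in skin against 2.50 and 1.65 and Cdkn1b at -2.35 against -0.76 and -0.50, while Cdkn2a, the neighbour of Cdkn2b at 1 locus, was at 0.72 against -0.38 and -0.65. Limma called none of the genes in these 4 lists, where 0.198% of all features were called. Of 29 chemokine and cytokine genes, 5 lay below both fibroblast arrays and 1 above; Cxcl12, the stromal ligand of Cxcr4, was at -2.48 in skin against 0.06 and 1.36, and Cxcl5, which attracts neutrophils, at -0.59 against -2.94 and -2.62.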

How the data were processed

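Per the deposited table, each spot holds 1 value per array, taken as the authors' log2 ratio of line (Cy5) over reference pool (Cy3). The base is not stated and was assumed, and the direction was read from the dyes in the labels. The sources used here do not give the scanner, background correction, normalization or spot filters, and whether arrays had been centred is unknown. Of 7680 probes, the 80 Gapdh spots were averaged, which left 7601 features; 36 missing on 1 of the 3 arrays were left out, from 6 to 22 empty spots an array. The platform annotation gave 6835 probes 1 symbol, 4 several and the rest none, and 6809 matched the RefSeq table of GRCm38.p6; 6727 of the 7565 tested features are named. No build is stated for the array.

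Each array was centred on its median. A feature counted past the fold when skin lay at least 1 (log2) above, or below, both fibroblast arrays, and as high or low in both lines at 1 or more, or -1 or less, on all 3. Limma 3.58.1 in R 4.3.3 (lmFit, eBayes, two-sided, Benjamini-Hochberg under 0.05) used the 3 arrays. The fit had 1 residual degree of freedom, 18.1 from moderation and a median residual SD of 0.655. It was also run on simulated data that gave all 3 arrays the same spread. Such a run cannot check whether the skin array varies like the fibroblast pair. Errors after a difference are limma's moderated standard errors, which rest mostly on a spread common to all features and little on the gene's own. The number of arrays limits the precision, and log2 ratios of different genes are not compared as levels. Probes of a gene were averaged for lists (169 genes).

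The members and the 30 gene lists were chosen with earlier results of these data known. Named genes are the 15 named features furthest below and above both fibroblast arrays by the smaller difference, those high in both lines (15) and low in both (8) by their least extreme array, the markers Grem1, Hmga2 and Slc27a3, and from each list up to 6 members past the fold, up to 6 high in both, and the first 6 of the list. The fibroblast list's 11 lower genes, Spry2, the second probes of named genes and the genes with no match to the motif were named outside this rule, after their values were seen. Alternatives were other scalings, folds and spreads, a trend (lowess, span 0.05) along the probe number removed, and each fibroblast array left out.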

Additional observations from a re-analysis of the deposited data

How the results depend on the processing

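No paired analysis was possible because the skin line has 1 array. Features rerun 1 by 1 were those ranked furthest below or above, those high or low in both lines, the markers and the limma calls. Of these, none past 2-fold reversed direction under the scalings run or with a fibroblast array left out. Genes named only from the lists were not rerun singly. The count above both fibroblast arrays (173) became 298 with ratios as deposited, 633 at a fold of 0.5 (log2) and 26 at 2, and 597 to 1000 with a fibroblast array left out; the count below (316) became 802, 70 and 724 to 976 at those folds and with an array left out. The 44 features high in both lines became 240 at a log2 ratio of 0.5, 0 at 2 and 80 to 113 with an array left out, and the 226 low in both became 503, 57 and 323 to 359. Limma's 3 higher and 12 lower calls became 1 and 5 with ratios as deposited, 17 and 35 after quantile normalization, 7 and 32 with arrays scaled to 1 spread, 0 and 1 with the spread from all 14 arrays (506 features at an unadjusted p under 0.05), and 0 and 1 with the trend along the probe number removed (339). Robust moderation gave 3 and 12. With a fibroblast array left out the 3 arrays leave no residual degree of freedom, so the 14-array limma fit was used, in which each lone array is assumed to vary like the pairs; it called 0 to 0 higher and 0 to 0 lower, with 924 to 946 features at an unadjusted p under 0.05. Centring moved the median difference of all features from 0.25 to 0.04 (log2). The difference of a feature rerun 1 by 1 moved by more than the fibroblast spread in 84 feature-by-scaling pairs and by less in 152. Signal over background is not in the table, so which low ratios rest on dim spots is unknown.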
